A study of Mus musculus with 217 samples.

Results

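Lowering of mutant huntingtin (mHtt) from conception was examined in the cortex of 12-month-old mice, by comparing LacQ140_A mice, which carried the repressible LacO-140Q allele and never received IPTG, with LacQ140 mice, which carried the same allele and were kept on IPTG throughout. The comparison held 20 of the 217 libraries of the series, 10 mice a side, each side 5 females and 5 males, and was fitted together with the 40 other libraries of the 12-month cortex. All mice were labelled C57BL/6, the C57BL/6J substrain in the study's methods, and carried a lac repressor transgene (LacIR) under the beta-actin promoter, so the repressor is made throughout the body, and the WT mice carry it too. The LacQ140_A and LacQ140 mice had 1 Htt allele with lac operators around the transcription start site and an expanded repeat, the allele named 140Q (Hdh(LacO-140Q/+), a name and not the repeat length of these mice), and 1 normal allele. WT mice, labelled Hdh(LacO-+/+), were sequenced without IPTG and with it (WT + IPTG), and LacQ140_2M and LacQ140_8M mice were taken off IPTG at 2 and 8 months of age. IPTG was started in utero through the dams, so the mice on the 2 sides of the comparison differ both in mHtt and in IPTG, and these cannot be told apart in it. The difference between WT and WT + IPTG was therefore subtracted in a further fit.

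Huntingtin is a large scaffold protein that links cargo to microtubule motors and is needed for development and for neurons. A long CAG repeat in exon 1 gives Huntington's disease, in which striatal spiny neurons and the cortical neurons that project to them are hit hardest and in which changes of the cortical transcriptome are usually milder than those of the striatum. IPTG is a lactose analog that pulls the lac repressor off its operators, so that the allele is on with IPTG and repressed without it. The operators flank the start site, and the part of that region upstream of the start is shown here as the reference holds it, without operators, because the lac repressor acts around this start. It is the 250 bases before the annotated Htt start (RefSeq, GRCm38.p6, chr5:34761490-34761739, plus strand).

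Htt promoter: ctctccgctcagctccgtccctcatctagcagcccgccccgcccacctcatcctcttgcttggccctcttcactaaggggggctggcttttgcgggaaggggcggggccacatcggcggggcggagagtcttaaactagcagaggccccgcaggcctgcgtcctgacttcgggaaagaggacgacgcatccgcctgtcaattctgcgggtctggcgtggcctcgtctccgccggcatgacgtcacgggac

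The tissue was cortex by its markers. Summed CPM (counts scaled to library size, with TMM factors) over 12 upper-layer neuron markers lay between 418 and 527 in LacQ140_A and between 423 and 500 in LacQ140, and all 12 were detected. The summed total counts of the 20 libraries lay between 33391082 and 44397922. Sex markers matched the label in 60 of 60 libraries. In the 20 libraries compared, the number of genes with a count lay between 21448 and 23317. Choroid plexus markers, which depend on how much ventricle lining is cut with the cortex, varied from 8.24 to 1049 summed CPM in LacQ140_A and from 7.87 to 1110 in LacQ140, and were over 100 CPM in 2 LacQ140_A and 6 LacQ140 libraries. None of the 8 choroid plexus genes was called.

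The 2 groups differed in how expression depended on transcript length. For each library a slope was taken of log2 CPM on log2 length of the longest transcript, over 13180 genes, and a more negative slope means relatively more signal from short transcripts. The slope was -0.443 at the lowest, -0.317 in the median and -0.177 at the highest in LacQ140_A, and -0.340, -0.223 and -0.0573 in LacQ140. The groups overlapped, but 4 LacQ140_A libraries, F4, F5, M1 and M3, had steeper slopes than every LacQ140 library. The mean was -0.310 ± 0.0896 (SD, n = 10) in LacQ140_A and -0.207 ± 0.0804 in LacQ140, a difference of -0.102 (two-sided permutation test with 100000 resamples, p = 0.0148, adjusted p = 0.0420 over the 7 tests of library measures). With each of the 20 libraries left out in turn, the difference stayed between -0.117 and -0.0857 and p between 0.00587 and 0.0308. The slope did not differ beyond the spread between LacQ140_A and WT (-0.0403, p = 0.378, adjusted p = 0.441) or between WT and WT + IPTG (-0.00398, p = 0.931, adjusted p = 0.931), where the WT mean was -0.269 ± 0.112 and the WT + IPTG mean -0.265 ± 0.0948. The share of counts from the mitochondrial genome was 9.63% ± 2.05 in LacQ140_A and 8.09% ± 0.965 in LacQ140 (p = 0.0444, adjusted p = 0.0777). Whether slope, mitochondrial share and mHtt lowering are linked in these mice was not tested, and the comparison of LacQ140_A with LacQ140 below was fitted without and with the slope as a covariate.

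**Figure D1:**
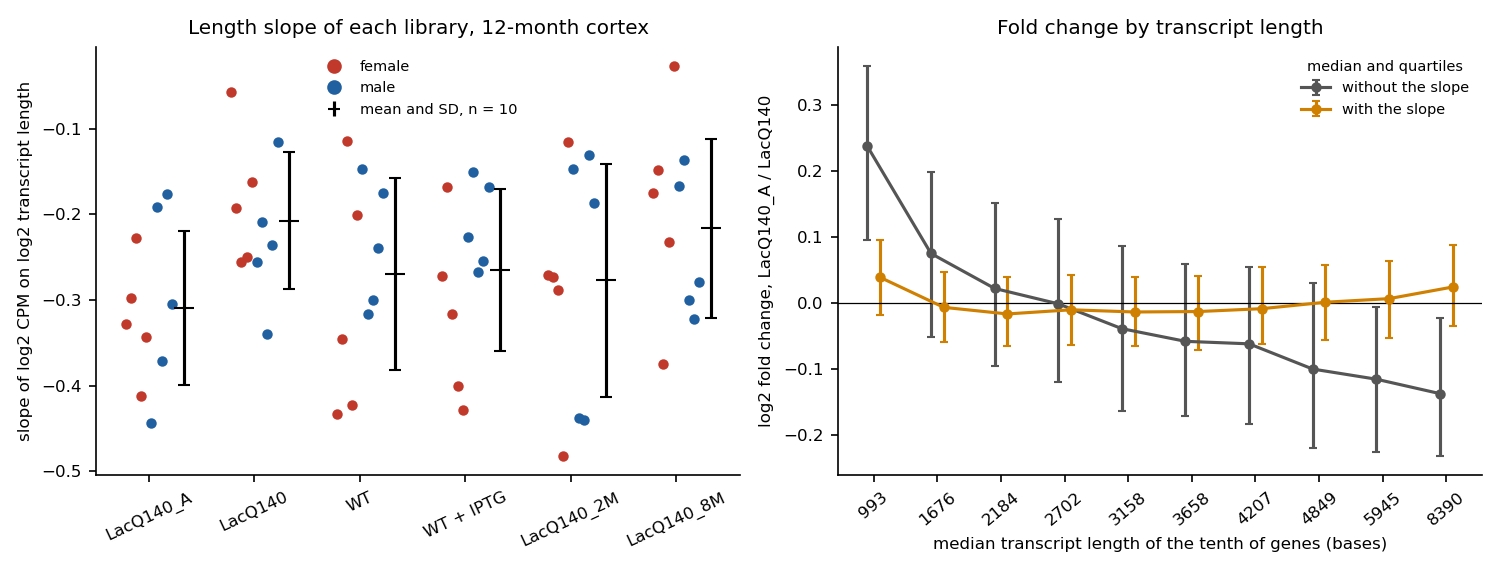
Length slope of each library in the 6 groups of the 12-month cortex, with the mean and SD of 10 mice (left), and the median and quartiles of the log2 fold change, LacQ140_A against LacQ140, in 10 bins of longest transcript length, without and with the slope as a covariate (right). The LacQ140_A mean of -0.310 is the lowest of the 6 groups, and the bin of shortest transcripts moves from a median of 0.24 without the slope to 0.04 with it.

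Fold changes followed transcript length. In the 1333 genes of shortest transcripts, with a median length of 993 bases, the median log2 fold change of LacQ140_A against LacQ140 was 0.24 without the slope and 0.04 with it. In the 1333 genes of longest transcripts, with a median of 8390 bases, it was -0.14 and 0.02. The slope term itself had an edgeR adjusted p under 0.05 for 13209 genes, 38.3% of the 34493 tested. The slope is computed from the counts of these same libraries and genes. This share and the medians nearer 0 therefore describe the fit and are not a separate test.

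Htt, the gene the operators sit in, was lower in LacQ140_A, but its adjusted p did not pass in this comparison. Htt (ENSMUSG00000029104, chr5:34761740-34912534, plus strand) was 13.5 CPM at the lowest, 16.6 in the median and 21.5 at the highest in LacQ140_A, and 18.2, 23.4 and 31.5 in LacQ140. All 10 LacQ140_A libraries lay below the LacQ140 median and 7 below every LacQ140 library. Without the slope the log2 fold change was -0.49 ± 0.13 (SE), a level of 0.712 of LacQ140, with a 95% interval of -0.75 to -0.23 (edgeR adjusted p = 0.186). With the slope it was -0.20 ± 0.07, a level of 0.872, with an interval of -0.34 to -0.06 (adjusted p = 0.605). Htt has a longest transcript of 13215 bases and a slope coefficient of 2.81, and its difference was nearer 0 with the covariate in the fit. When the LacQ140_A and LacQ140 libraries were fitted alone, the difference without the slope was the same size and passed (adjusted p = 0.000284), and with the slope it was -0.26 (adjusted p = 0.622).

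Mean Htt in the other groups lay above that of LacQ140 or between those of LacQ140_A and LacQ140. The mean was 28.1 ± 7.61 CPM in WT, 26.4 ± 5.55 in WT + IPTG, 17.7 ± 4.66 in LacQ140_2M and 18.0 ± 4.01 in LacQ140_8M, against 17.0 ± 2.41 in LacQ140_A and 23.9 ± 4.18 in LacQ140 (n = 10 each). Against WT, with no IPTG on either side, Htt fell by 0.72 on the log2 scale in LacQ140_A without the slope (edgeR adjusted p = 0.00408) and by 0.58 with it (adjusted p = 5.73e-10). Beyond the difference of WT and WT + IPTG, the LacQ140_A difference was -0.58 without the slope (adjusted p = 0.381) and -0.29 with it (adjusted p = 0.306). The counts do not part the 140Q allele from the normal one, so a change of mHtt alone is diluted by the normal allele in every one of these values. In females Htt was 16.7 CPM in LacQ140_A and 25.3 in LacQ140, and in males 17.3 and 22.4.

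Across all genes, 15 were called between LacQ140_A and LacQ140 without the slope, 13 higher and 2 lower in LacQ140_A, which is 0.0435% of those tested. A gene was called with an edgeR adjusted p under 0.05 and a change of at least 20%. With the slope 25 were called, 19 higher and 6 lower, 0.0725% of those tested. Only 8 genes were called in both fits, 7 without the slope only and 17 with it only, and the number of genes with an unadjusted p under 0.05 fell from 4546 to 1909. The lists depend on single libraries. Without the slope, leaving out the LacQ140_A libraries F4, F5, F1 or M1 left 1, 3, 4 or 8 calls, and leaving out the LacQ140 libraries F2, F1, F5, F4, M4, M5 or M2 left 2, 3, 5, 6, 7, 7 or 9. With the slope, leaving out LacQ140 F1 or F5 or LacQ140_A F1 left 14, 15 or 16. Only Gm28040 of the 15 passed whichever of the 20 libraries was left out, against 10 of the 25 with the slope. No call held in every other setting tried. Of the 15 calls without the slope, 9 were lost in 1 to 3 of 9 settings and 6 in 4 or 5. With the slope, G530011O06Rik was lost in 1 of 11, Smim3 and Gm28040 in 2, Mast3 in 3, and the other 21 in 4 to 10, 15 of them in 7 or more. Without the 4 LacQ140_A libraries of steepest slope, a choice made after the data were seen, 0 genes were called without the slope (1171 with an unadjusted p under 0.05) and 11 with it. Fitted alone, the 20 libraries gave 1896 calls without the slope (6.06% of the 31278 genes tested), which included all 15 above, and 12 with it (0.0384%), of which 5 were among the 15 and 7 among the 25. For scale, in the fits of all 60 libraries WT + IPTG against WT gave 0 calls without the slope (2001 with an unadjusted p under 0.05) and 153 with it (0.444%).

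In every gene called higher without the slope, the LacQ140 mean lay below both WT means. This held for 13 of 13, and also for 13 of the 13 genes called higher with the slope at a mean of at least 2 CPM. The LacQ140_A mean lay above the WT mean in 11 of 13 and 11 of 13, and above both WT means in 9 and 7. The genes were chosen on the LacQ140 libraries, so these counts describe them and were not tested. In bulk tissue a lower value can come from fewer cells of a type or from less RNA per cell, which cannot be told apart.

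Smim3, Tsc22d3 and Gm19439 were higher in LacQ140_A in both fits and had means there close to those of WT. Smim3 encodes a small integral membrane protein. It was 28.2 CPM at the lowest, 41.6 in the median and 59.8 at the highest in LacQ140_A, and 16.5, 25.8 and 31.7 in LacQ140. In 9 of 10 LacQ140_A libraries it was above every LacQ140 library, and its mean was 41.7 CPM in WT and 42.5 in WT + IPTG. It rose by 0.74 ± 0.13 on the log2 scale without the slope (edgeR adjusted p = 0.0069) and by 0.53 ± 0.09 with it (adjusted p = 0.000388). Without LacQ140_A F4 the first of these missed the threshold (adjusted p = 0.0539), and the fit with the slope passed with each library left out.

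Tsc22d3 (ENSMUSG00000031431, chrX:140539528-140600659, minus strand) encodes the glucocorticoid-induced leucine zipper, which carries part of the anti-inflammatory action of stress hormones. It was 139, 172 and 237 CPM in LacQ140_A (lowest, median, highest) and 98.6, 119 and 160 in LacQ140. The groups overlapped, with 8 of 10 LacQ140_A libraries above every LacQ140 library. The log2 difference was 0.54 ± 0.11 without the slope (edgeR adjusted p = 0.0205) and 0.44 ± 0.08 with it (adjusted p = 0.00289), and beyond WT and WT + IPTG it was 0.61 with the slope (adjusted p = 0.00398). Without the slope the call was lost when LacQ140 F1, F2 or F4 or LacQ140_A F4 or F5 was left out. Gm19439, a transcript annotated at chr3:88030878-88033150 on the plus strand with no assigned function, was 25.8, 44.2 and 98.0 CPM in LacQ140_A and 12.5, 22.7 and 39.9 in LacQ140. It rose by 1.03 ± 0.19 without the slope (adjusted p = 0.0131) and by 0.76 ± 0.14 with it (adjusted p = 0.000708), and the highest value is that of LacQ140_A F4, the only library far from the rest. The call without the slope was lost when that library or LacQ140 F1 or F2 was left out, and the call with it in 7 of 11 other settings.

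Camk2n1 (chr4:138454314-138460123, plus strand), an endogenous inhibitor of the calcium/calmodulin-dependent kinase CaMKII, was the most abundant gene called. It was 3877, 4284 and 6154 CPM in LacQ140_A and 2921, 3336 and 3941 in LacQ140, and 9 of 10 LacQ140_A libraries lay above every LacQ140 library. The difference was 0.46 ± 0.10 without the slope (edgeR adjusted p = 0.0427), a call lost in 13 of 20 fits with a library left out and in 4 of 9 other settings. With the slope it was 0.25 ± 0.05 (adjusted p = 0.000836), which is a change of under 20% and so was not called. Its mean was 4346 CPM in WT and 4548 in WT + IPTG, and beyond that difference the LacQ140_A effect was 0.33 with the slope (adjusted p = 0.00398).

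**Figure D2:**
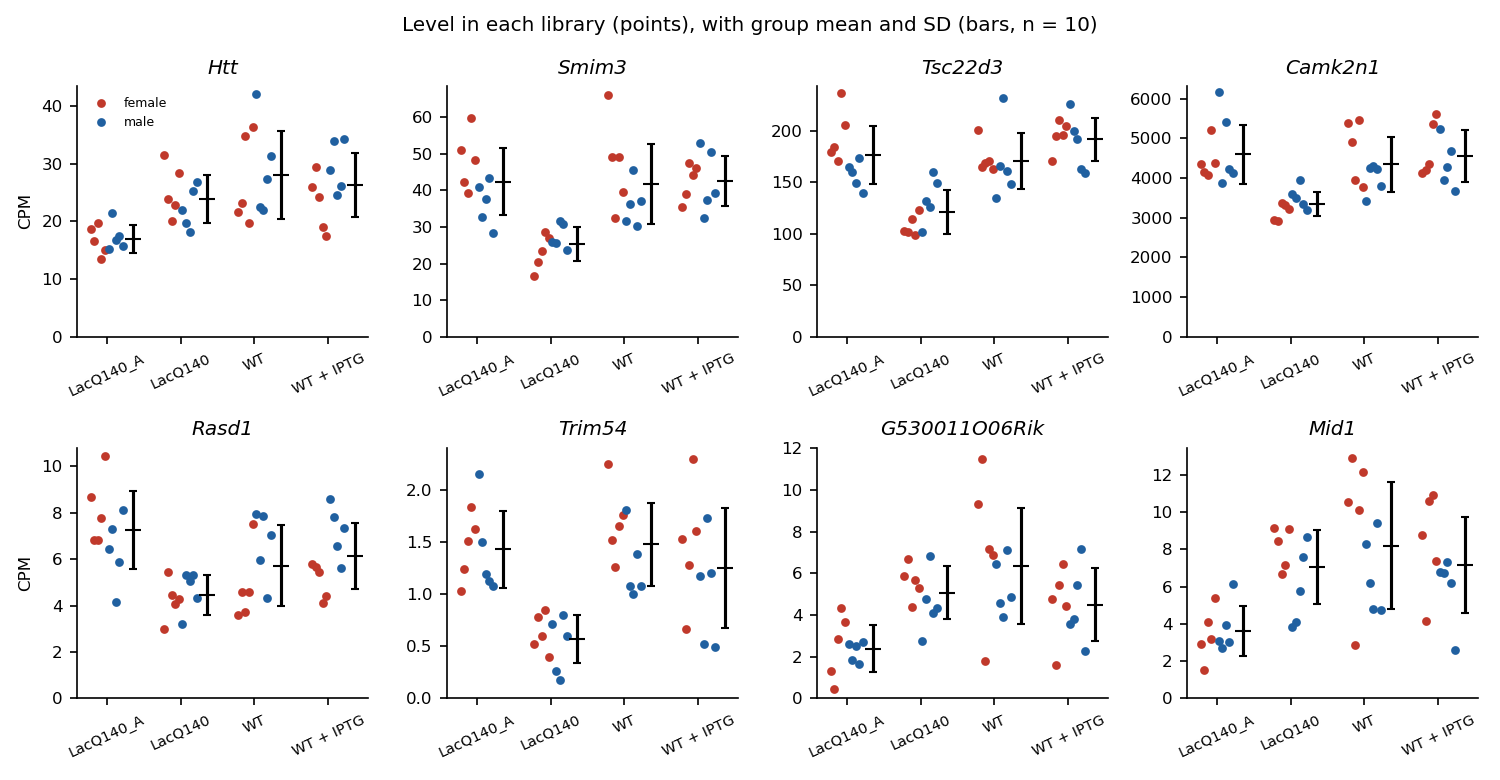
CPM of 8 genes in each library of the 12-month cortex, for LacQ140_A, LacQ140, WT and WT + IPTG, with the mean and SD of 10 mice and females in red and males in blue. Smim3, Tsc22d3 and Camk2n1 are low in LacQ140 against the other 3 groups, and Htt, Mid1 and G530011O06Rik are lowest in LacQ140_A.

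Among the less abundant genes called in the fit without the slope, Trim54 was the only one of the 32 genes called in either fit whose groups did not overlap. The share of all tested genes whose groups do not overlap was not counted, so this describes Trim54 only. Trim54 (chr5:31116712-31137630, plus strand) encodes a RING-finger protein of the muscle cytoskeleton and is overlapped on the other strand by Gm15469. It was 1.02, 1.37 and 2.15 CPM in LacQ140_A and 0.173, 0.597 and 0.844 in LacQ140. The difference was 1.32 ± 0.28 without the slope (edgeR adjusted p = 0.0321) and 1.01 ± 0.24 with it (adjusted p = 0.0594), and WT mice had a mean of 1.47 CPM.

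Ada, Ctla2b and Tmem37 were also higher in LacQ140_A without the slope. Ada (chr2:163726584-163750239, minus strand), which encodes adenosine deaminase and so clears adenosine, was 1.58, 2.98 and 8.67 CPM in LacQ140_A and 0.484, 1.504 and 2.86 in LacQ140. It rose by 1.12 ± 0.23 (edgeR adjusted p = 0.0315), and by 0.88 ± 0.19 with the slope (adjusted p = 0.0286). Ctla2b, a relative of cysteine protease propeptides, rose by 1.05 (adjusted p = 0.0258) and 0.77 (adjusted p = 0.0334), from a median of 1.37 to 2.94 CPM, and it overlaps 3 predicted genes, so that its counts are uncertain. Tmem37, which encodes a protein related to calcium channel gamma subunits, differed by 0.63 ± 0.14 without the slope (adjusted p = 0.0427) and by 0.49 ± 0.13 with it (adjusted p = 0.121). The call of Tmem37 held in 4 of 20 fits with a library left out, that of Trim54 in 9 and that of Ada in 10.

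Trpc5 (chrX:144381671-144688180, minus strand), which encodes a calcium-permeable cation channel of neurons, was 1 of the 2 genes that were lower without the slope. It was 0.691, 1.08 and 1.83 CPM in LacQ140_A and 1.74, 2.17 and 2.47 in LacQ140, with 9 of 10 LacQ140_A libraries below every LacQ140 library. The difference was -0.91 ± 0.19 without the slope (edgeR adjusted p = 0.0315) and -0.71 ± 0.17 with it (adjusted p = 0.0685), and the WT mean lay between the groups at 1.56 CPM. The call was lost in 11 of 20 fits with a library left out and in 2 of 9 other settings. Trpc5 has genes on the opposite strand within it, and the strand of the libraries is not given in the sources used here. The other lower gene, Gm28539, is a readthrough transcript over Hira that had 0 counts in 12 of the 20 libraries, and Hira itself differed by -0.15 without the slope and -0.02 with it.

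The remaining calls without the slope were transcripts that overlap other genes or had few counts. Gm28040 (chr1:133309827-133329722, plus strand), which spans Golt1a and Kiss1, was 0.779, 1.18 and 1.90 CPM in LacQ140_A and 0.141, 0.368 and 0.878 in LacQ140, and rose by 1.62 ± 0.28 (edgeR adjusted p = 0.00405) and by 1.49 ± 0.26 with the slope (adjusted p = 0.000601). Kiss1, which encodes the peptide kisspeptin, was at 0 CPM in LacQ140_A and at most 0.0481 in LacQ140, and Golt1a differed by -0.68 without the slope (adjusted p = 0.557). Plet1os rose by 1.98 (adjusted p = 0.0258), Gm42798 by 1.70 (adjusted p = 0.0493) and Gm48678, antisense to Itsn2, by 1.29 (adjusted p = 0.0412). Of those named here only Gm28040 and Plet1os, at 1.77 with an adjusted p of 0.038, were also called with the slope.

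With the slope, 16 called genes had a mean of at least 2 CPM, 13 higher and 3 lower. Rasd1 (chr11:59963181-59964944, minus strand), a small Ras-related protein first known as induced by dexamethasone, was 4.15, 7.07 and 10.4 CPM in LacQ140_A and 2.98, 4.40 and 5.46 in LacQ140. In 9 of 10 LacQ140_A libraries it was above every LacQ140 library. It rose by 0.81 ± 0.14 with the slope (edgeR adjusted p = 0.00048), and the difference without the slope was 0.71 (adjusted p = 0.0672). The call with the slope held in 20 of 20 fits with a library left out, and without the 4 steepest libraries it was 0.76 (adjusted p = 0.00623). It was lost in 4 of 11 other settings, namely the 20 libraries alone, the replicate block, robust dispersions and limma (adjusted p up to 0.134).

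Further genes called higher in the fit with the slope were Sgk1, Arrdc2, Txnip, Plekhf1 and Ptgs2. Sgk1 (chr10:21882184-21999903, plus strand), a kinase induced by serum and glucocorticoids, was 96.8, 129 and 155 CPM in LacQ140_A and 57.7, 92.1 and 134 in LacQ140, and rose by 0.53 ± 0.11 (edgeR adjusted p = 0.0174). Arrdc2, an arrestin-domain protein, was 11.4, 21.5 and 28.6 CPM against 8.31, 12.8 and 21.9, and rose by 0.62 ± 0.13 (adjusted p = 0.00757). Txnip, which binds thioredoxin and limits glucose uptake, was 23.3, 37.3 and 57.4 CPM against 18.9, 27.0 and 30.9 and rose by 0.51 (adjusted p = 0.0286).

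Plekhf1, an endosomal protein, rose by 0.55 (edgeR adjusted p = 0.0286), and Ptgs2, the inducible cyclooxygenase that neurons make with activity, by 0.41 ± 0.09 (adjusted p = 0.038). Ptgs2 was 9.42, 12.7 and 14.2 CPM in LacQ140_A and 6.22, 9.77 and 10.96 in LacQ140, and 8 of 10 LacQ140_A libraries lay above every LacQ140 library. These 5 genes had differences of 0.43 to 0.56 without the slope that did not pass. With a library left out, the call with the slope held in 19 of 20 fits for Arrdc2, 12 for Sgk1, 10 for Txnip and 8 each for Plekhf1 and Ptgs2. In the 11 other settings it was lost in 7 for Arrdc2, DESeq2, limma and the 20 libraries alone among them, and in 8 for each of the other 4. Mast3, a microtubule-associated kinase, was 84.0, 93.3 and 115 CPM against 71.5, 86.9 and 113, with 1 of 10 LacQ140_A libraries above every LacQ140 library, and it rose by 0.30 ± 0.06 with the slope alone (adjusted p = 0.00556). Gpr153, an orphan receptor, likewise rose by 0.42 with the slope (adjusted p = 0.0429) and differed by 0.16 without it (adjusted p = 0.669). Its call held in 6 of 20 fits with a library left out and in 1 of 11 other settings.

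The transcripts that were lower with the slope included a pair on the X chromosome. G530011O06Rik is a noncoding transcript (chrX:169975043-169978917, minus strand) inside Mid1 (chrX:169685199-170005736, plus strand), which encodes a microtubule-bound ubiquitin ligase. G530011O06Rik was 0.429, 2.54 and 4.35 CPM in LacQ140_A and 2.75, 5.05 and 6.82 in LacQ140, and 7 of 10 LacQ140_A libraries lay below every LacQ140 library. The difference was -1.10 without the slope (edgeR adjusted p = 0.0672) and -1.35 ± 0.20 with it (adjusted p = 1.26e-05). It passed in 20 of 20 fits with a library left out and, at -1.60, without the 4 steepest libraries (adjusted p = 2.65e-05).

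Mid1 was 1.52, 3.15 and 6.15 CPM in LacQ140_A and 3.82, 7.38 and 9.17 in LacQ140, and the difference was -0.97 in both fits (edgeR adjusted p = 0.175 without the slope, 0.0302 with it). The call of Mid1 with the slope held in 7 of 20 fits with a library left out, and was lost without any of the 5 LacQ140 females, without LacQ140 M4 or M5, and without LacQ140_A F1, F2, F4, M1, M2 or M4. It was lost in 8 of 11 other settings. LacQ140_A was the low group also against the rest. The mean of G530011O06Rik was 2.38 CPM in LacQ140_A, 6.35 in WT, 4.49 in WT + IPTG, 5.43 in LacQ140_2M and 3.69 in LacQ140_8M, and that of Mid1 was 3.60, 8.21, 7.15, 7.77 and 6.55. Against WT with the slope, G530011O06Rik fell by 1.5 (edgeR adjusted p = 1.8e-08) and Mid1 by 1.18 (adjusted p = 0.000429). Without the slope G530011O06Rik was called against WT and Mid1 was not. On the side of lower positions, the neighbours Arhgap6, Hccs and BC022960 differed by -0.10, 0.00 and -0.15 with the slope (adjusted p = 1 for each). Genes on the other side of Mid1 were not compared, so these values cover only that side. Mid1 and G530011O06Rik lie on opposite strands, so their reads cannot be told apart if the libraries are not stranded.

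Gm20425 (chr9:103190208-103230307, minus strand), a readthrough transcript of Trf and Srprb, was 0.404, 3.47 and 14.4 CPM in LacQ140_A and 9.38, 14.2 and 18.6 in LacQ140, and fell by 1.28 ± 0.26 with the slope (edgeR adjusted p = 0.00512), a call lost in 8 of 11 other settings. Trf, which encodes transferrin and is abundant in oligodendrocytes, differed by -0.04 and Srprb by 0.04 with the slope, so the difference was seen in the readthrough model alone among these 3. The 9 genes called with the slope at under 2 CPM were Gm28040, Gm28539 and Plet1os, given above, and 6 others with 0 counts in 1 or more libraries of each group. Among these Gm9726 had counts in LacQ140 M3 only and Gm43694 in LacQ140_A M4 only, and the pseudogene Mrip-ps was at 0 in every LacQ140_A library. The pseudogene Rpl14-ps1 rose by 2.27 (edgeR adjusted p = 0.038), Gm26649, on the strand opposite to Klf7, by 3.11 (adjusted p = 0.0102) and Gm42417, which overlaps Ankrd23 and Ankrd39, by 2.53 (adjusted p = 0.0112), at medians of at most 0.549 CPM in LacQ140_A and 0.120 in LacQ140. These 3 calls were lost in 9, 7 and 8 of 11 other settings.

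Of 14 glucocorticoid responsive genes, 14 had a difference above 0 in the fit with the slope, where 2 were called, and 12 without it. With the slope 13 of the 14 differences were larger in females than in males, all but Per1. None passed adjustment for the difference of the sexes. The list held 14 genes that stress hormones are known to induce in brain, among them Tsc22d3, Sgk1, Fkbp5, Klf9, Per1, Zbtb16 and the metallothioneins Mt1 and Mt2. Without the slope 1 of 14 was called (Tsc22d3) and 7 had an unadjusted p under 0.05, all higher in LacQ140_A, against 1728 higher (13.0%) and 1580 lower (11.9%) of the 13327 genes measured at 2 CPM or more. With the slope 2 were called (Tsc22d3 and Sgk1) and 12 had an unadjusted p under 0.05, again all higher, against 605 higher (4.54%) and 373 lower (2.80%). The call of Sgk1 was lost in 8 of 11 other settings, the 20 libraries alone, DESeq2 and the fit without the 4 steepest libraries among them, and in 8 of 20 fits with a library left out. That of Tsc22d3 was lost in 5 of 11 and 0 of 20. The median log2 difference was 0.23 without the slope and 0.35 with it, against -0.03 and -0.00 over all measured genes. The 14 lay between 0.15 and 0.53 with the slope, and between -0.06 and 0.54 without it, where Klf9 and Pdk4 were below 0. Nfkbia, an inhibitor of NF-kappaB, was at 0.45 ± 0.11 with the slope (edgeR adjusted p = 0.0652) and 0.33 without it (adjusted p = 0.282), and Zbtb16, a transcription factor, at 0.53 ± 0.14 (adjusted p = 0.162) and 0.11 ± 0.22 (adjusted p = 0.898).

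In females the list's median difference was 0.73 with the slope and 0.41 without it, and in males 0.02 and -0.01. With the slope all 14 were higher in LacQ140_A females and 8 of 14 in males. Sgk1 lay between 133 and 155 CPM in LacQ140_A females and between 57.7 and 95.5 in LacQ140 females, with no overlap, and had means of 116 and 110 CPM in males. Arrdc2, which is not on the list, lay between 22.2 and 28.6 CPM in LacQ140_A females and between 8.31 and 12.9 in LacQ140 females, and had means of 15.9 and 16.5 in males. The female difference with the slope was 1.02 ± 0.17 for Sgk1 (edgeR adjusted p = 0.000771), 0.72 for Tsc22d3 (adjusted p = 0.00186), 0.84 for Nfkbia (adjusted p = 0.00299), 1.03 for Zbtb16 (adjusted p = 0.00507), 0.49 for Klf9 (adjusted p = 0.0275) and 0.75 for Ddit4 (adjusted p = 0.0295). Without the slope 3 of these 6 were called in females, namely Sgk1 at 0.93 (adjusted p = 0.00429), Tsc22d3 at 0.85 (adjusted p = 0.000577) and Ddit4 at 0.78 (adjusted p = 0.0242). Nfkbia was then at 0.67 (adjusted p = 0.153), Zbtb16 at 0.44 (adjusted p = 0.588) and Klf9 at 0.04 (adjusted p = 1). In males none of the 14 was called.

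Over all genes, 41 were called in females with the slope, 36 higher and 5 lower (0.119% of those tested), and 3 in males, 1 higher and 2 lower (0.0087%). Without the slope these were 25 in females (0.0725%) and 0 in males, where 1432 genes had an unadjusted p under 0.05. These fits within a sex were added after the data were seen. By the study's methods, cages were uniform for sex, genotype and treatment, and cage was not in the fits. A cage effect and a group difference within a sex therefore cannot be told apart. The difference of the sexes itself, males beyond females, passed for 0 genes without the slope (edgeR, 1272 with an unadjusted p under 0.05) and for 1 gene with it (0.0029%), Arrdc2, at -1.25 (adjusted p = 0.0126). Of the 14 list genes 9 had an unadjusted p under 0.05 for it, against 4.9% of all 34493 genes tested, and none passed adjustment. That share includes genes of very low counts, and the share among genes measured at 2 CPM or more was not counted. Among females Sgk1 was lowest in LacQ140, with a mean of 76.3 CPM, against 138 in WT, 123 in WT + IPTG and 146 in LacQ140_A. Low values were also seen in males, which spanned 58.2 to 134 CPM in LacQ140 and 48.0 to 123 in LacQ140_2M. The LacQ140_2M females lay between 108 and 155 CPM, and LacQ140_8M mice of both sexes between 105 and 135.

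The list's median lay near 0 between LacQ140_A and WT. With the slope the median difference was 0.02 for LacQ140_A against WT, -0.23 for LacQ140 against WT + IPTG and -0.02 for WT + IPTG against WT. These comparisons share libraries with the main one and are given side by side only. Beyond WT and WT + IPTG the LacQ140_A effect had a median of 0.33 with the slope, against 0.01 over all measured genes, and 7 of 14 were higher with an unadjusted p under 0.05 (7.32% of all measured genes) and none lower. Without the slope the median was 0.19, against -0.02, and 2 of 14 were higher (14.3%, against 9.60%). In the fit with the slope the 5 blood markers (the hemoglobin genes Hba-a1, Hba-a2, Hbb-bs and Hbb-bt, and Alas2) had a median of 0.95, with 5 of 5 higher at an unadjusted p under 0.05 and none called. Their summed CPM lay between 852 and 7020 in WT + IPTG and between 363 and 1455 in WT, and with the slope 4 of 5 were called higher in WT + IPTG than in WT. Between LacQ140_A and LacQ140 the blood markers had medians of -0.08 without the slope and 0.02 with it, at summed CPM of 397 to 3133 and 299 to 2089. The part of blood in the values beyond WT and WT + IPTG was not tested. Without the 4 steepest LacQ140_A libraries, the glucocorticoid list's median between LacQ140_A and LacQ140 was 0.29 without the slope and 0.36 with it.

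**Figure D3:**
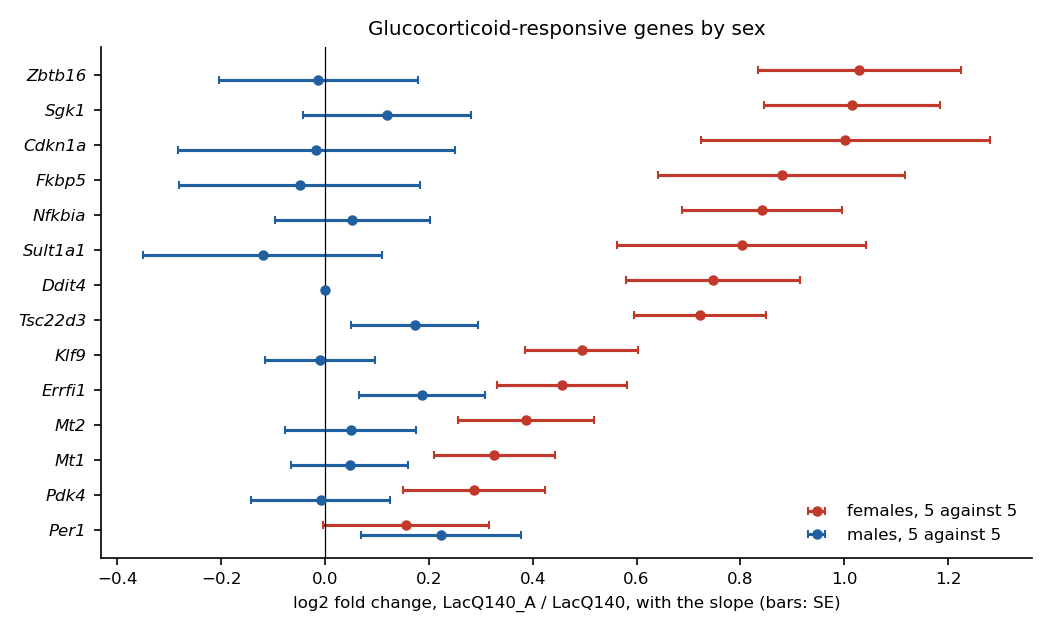
Log2 fold change, LacQ140_A against LacQ140, with the slope as a covariate, for the 14 glucocorticoid responsive genes in females (5 against 5) and males (5 against 5), with bars of 1 SE except for Ddit4 in males, whose difference is too near 0 for one. All 14 are above 0 in females, with a median of 0.73, and the males scatter about a median of 0.02.

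Glucocorticoids act through a receptor that binds DNA as a dimer at paired AGAACA letters facing each other, written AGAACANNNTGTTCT. Windows of 250 bases before annotated starts (RefSeq, GRCm38.p6) were searched for these letters on both strands. AGAACA on either strand was found in 5284 of 32851 windows (16.1%) and in 5 of 23 windows of 13 list genes (21.7%), 3 of them among the 6 windows of Sgk1, and the paired form, each match of which also counts as AGAACA, was found in 3 windows of all (0.00913%), 1 of them of the list (4.35%). That window is 1 of 6 annotated for Sgk1 (chr10:21993640-21993889, plus strand). It is shown because Sgk1 is a list gene called in the fit with the slope, and the AGAACA and TGTTCT letters are in capitals. The paired form starts 189 bases before the start. A match is a description of the letters and not of binding.

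Sgk1 promoter: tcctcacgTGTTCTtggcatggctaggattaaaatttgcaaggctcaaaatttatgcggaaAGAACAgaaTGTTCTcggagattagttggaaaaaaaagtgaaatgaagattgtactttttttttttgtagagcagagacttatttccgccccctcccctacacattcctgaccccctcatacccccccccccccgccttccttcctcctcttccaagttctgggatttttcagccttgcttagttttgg

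Gene groups of short transcripts had positive median differences and those of long transcripts negative ones, and most of these medians were nearer 0 with the slope. Of 77 measured ribosomal protein genes, with a median longest transcript of 1094 bases, 71 had an unadjusted p under 0.05 and were higher without the slope (92.2%, against 13.0% of all measured genes), and 38 with it (49.4%, against 4.54%), and none was called in either fit. Their median log2 difference was 0.36 without the slope and 0.10 with it. Rps12 was 190 ± 60.8 CPM in LacQ140_A and 123 ± 27.6 in LacQ140, and its difference was 0.62 ± 0.17 without the slope (edgeR adjusted p = 0.186) and 0.20 ± 0.07 with it (adjusted p = 0.587). Of 78 nuclear genes of oxidative phosphorylation, 59 were higher with an unadjusted p under 0.05 without the slope (75.6%) and 16 with it (20.5%), and the median went from 0.27 to 0.06. The 13 genes of the mitochondrial genome had medians of 0.21 and 0.07, and 37 proteasome genes 0.18 and 0.02.

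Neuronal groups of long transcripts had medians of the other sign without the slope. The 23 glutamate synapse scaffold genes, with a median longest transcript of 6326 bases, had a median difference of -0.24 without the slope and 0.07 with it, and 27 presynaptic release genes -0.18 and 0.06. The 13 neurofilament and axonal cytoskeleton genes were at -0.21 and 0.08. Clustered protocadherins, adhesion proteins that give neurons their identity, had 15 of 37 members lower with an unadjusted p under 0.05 without the slope (40.5%, against 11.9% of all measured genes), and 3 lower (8.11%, against 2.80%) and 1 higher with it, at medians of -0.28 and -0.07. Pcdhgb6 was 2.79 ± 1.08 CPM in LacQ140_A and 5.01 ± 1.18 in LacQ140, a difference of -0.83 ± 0.26 without the slope (edgeR adjusted p = 0.208) and -0.34 ± 0.16 with it (adjusted p = 0.84). None of the genes of these groups was called. Bsn, the presynaptic scaffold Bassoon with a longest transcript of 15938 bases, was at -0.29 ± 0.18 without the slope and 0.15 ± 0.07 with it, so its sign turned (adjusted p = 0.48 and 0.857).

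**Figure D4:**
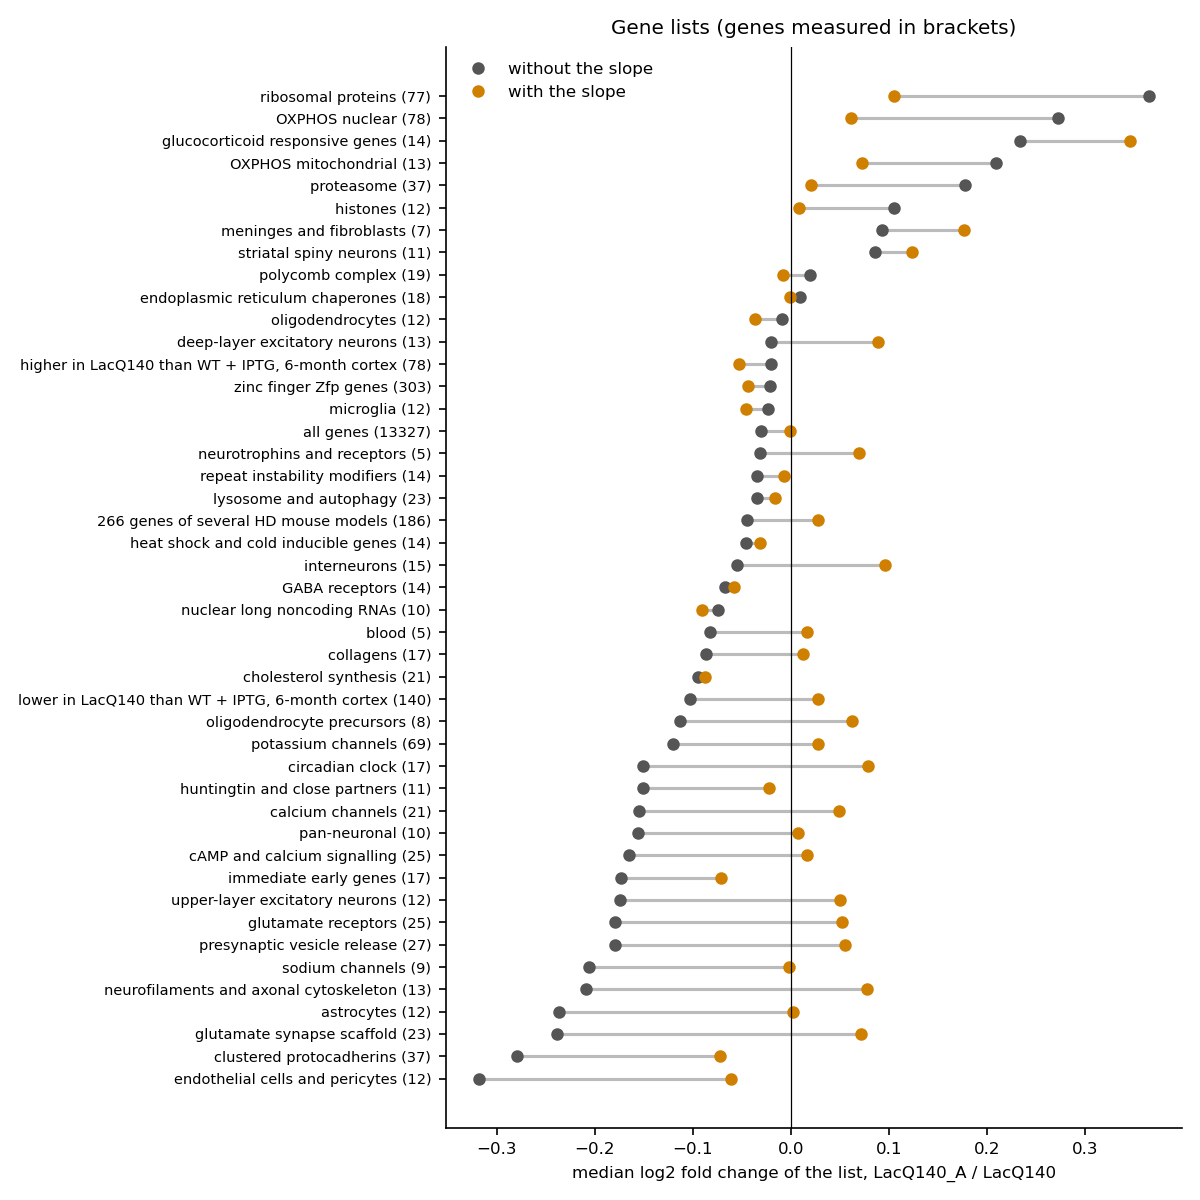
Median log2 fold change, LacQ140_A against LacQ140, over the measured genes of each list, without and with the slope as a covariate. Ribosomal proteins go from 0.36 to 0.10 and the glutamate synapse scaffold from -0.24 to 0.07, while glucocorticoid responsive genes go from 0.23 to 0.35.

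None of the cell type markers was called in either fit, and the 12 marker lists with at least 5 measured genes had medians between -0.06 and 0.18 with the slope, the highest being that of meninges and fibroblasts (0.09 without it). The median difference without and with the slope was -0.32 and -0.06 for endothelial cells and pericytes, -0.24 and 0.00 for astrocytes, -0.16 and 0.01 for pan-neuronal genes, -0.06 and 0.10 for interneurons, -0.01 and -0.04 for oligodendrocytes and -0.02 and -0.05 for microglia. Of the 12 endothelial and pericyte markers 4 were lower with an unadjusted p under 0.05 without the slope and 3 with it (25%, against 2.80% of all measured genes), and of the 12 astrocyte markers 5 without it (41.7%, against 11.9%) and 1 with it (8.33%). Astrocyte markers that were higher numbered 1 without the slope (8.33%, against 13.0%) and 2 with it (16.7%, against 4.54%). The 1 choroid plexus marker measured at 2 CPM or more was at -1.25 and -1.79, with no unadjusted p under 0.05. Gfap, the filament of reactive astrocytes, was 120 ± 24.8 CPM in LacQ140_A and 142 ± 20.01 in LacQ140 (-0.24 ± 0.12, edgeR adjusted p = 0.376, without the slope, and -0.12 ± 0.09, adjusted p = 1, with it). Pvalb, of fast-spiking interneurons, was 303 ± 49.3 and 238 ± 28.1 CPM (0.35 ± 0.11, adjusted p = 0.208, and 0.12 ± 0.06, adjusted p = 0.892). Markers of striatal spiny neurons, which would mark striatum cut with the cortex, had medians of 0.09 and 0.12, and their summed CPM lay between 271 and 340 in LacQ140_A and between 242 and 330 in LacQ140.

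LacQ140 was also compared with WT + IPTG, and since the LacQ140 libraries stand in both comparisons the values are only set side by side. Without the slope 31 genes were called, 8 higher and 23 lower (0.0899% of those tested), and 149 with it (0.432%). Fam83d, which has a role in the mitotic spindle, fell by 1.23 on the log2 scale in LacQ140 against WT + IPTG (edgeR adjusted p = 0.000913), and was at 0.60 in LacQ140_A against LacQ140 (adjusted p = 0.259).

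Abhd1, a hydrolase gene, and Cldn14, a tight junction gene, were higher in LacQ140 than in WT + IPTG, and higher in LacQ140_A than in WT. Abhd1 was 4.44, 6.97 and 8.28 CPM in LacQ140_A, 5.03, 7.01 and 7.72 in LacQ140, and had means of 2.59 CPM in WT and 2.70 in WT + IPTG. It differed between LacQ140_A and LacQ140 by 0.01, with a 95% interval of -0.25 to 0.28 (edgeR adjusted p = 1), and rose by 1.36 in LacQ140_A against WT (adjusted p = 8.98e-10). Cldn14 had means of 2.57 CPM in LacQ140_A, 2.89 in LacQ140, 1.36 in WT and 1.02 in WT + IPTG. It differed by -0.17 without the slope (adjusted p = 0.716) and by -0.44 with it (adjusted p = 0.366), and against WT it rose by 0.93 in LacQ140_A (adjusted p = 0.0244). Enpp6, an oligodendrocyte lineage enzyme, rose by 0.67 against WT (adjusted p = 0.0244) and differed from LacQ140 by -0.27. Against WT in all, 6 genes were called without the slope, 4 higher and 2 lower (0.0174% of those tested), and 58 with it (0.168%).

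With the difference of WT and WT + IPTG subtracted, 1 gene was called without the slope (0.0029% of those tested, edgeR, 3306 with an unadjusted p under 0.05) and 33 with it (0.0957%). The gene called without the slope is Gm28539. With the slope these included Smim3 at 0.59 (adjusted p = 0.0176), Tsc22d3 at 0.61 (adjusted p = 0.00398), Ptgs2 at 0.60 (adjusted p = 0.019), Rasd1 at 0.90 (adjusted p = 0.018) and G530011O06Rik at -1.83 (adjusted p = 8.78e-06). Both fits use the LacQ140_A and LacQ140 libraries and so are not independent. The count without the slope moved with single libraries, to 11 without LacQ140 F3, 7 without LacQ140_A M4, 5 without LacQ140 M1 or LacQ140_A F4, 3 without LacQ140 F2 or M4 and 2 without LacQ140 F5, M2 or M3.

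Genes called between LacQ140 and WT + IPTG in the cortex of other mice at 6 months had median differences between -0.10 and 0.03 between LacQ140_A and LacQ140. Of 120 genes higher in LacQ140 at that age, 78 were measured and none was called, and their median difference between LacQ140_A and LacQ140 was -0.02 without the slope and -0.05 with it. At an unadjusted p under 0.05, 3 of the 78 were higher and 6 lower without the slope (3.85% and 7.69%). With it 1 was higher and 5 lower (1.28% and 6.41%). Of 168 genes lower at that age, 140 were measured, and their median was -0.10 without the slope and 0.03 with it. Among these Gm48678 was called without the slope, and Etv5, a transcription factor of the ETS family, was at 0.27 ± 0.07 with it (edgeR adjusted p = 0.0594) and 0.11 ± 0.09 without it (adjusted p = 0.625). Of the 140 genes lower at 6 months, 6 were higher and 17 lower with an unadjusted p under 0.05 without the slope, and 12 higher and 2 lower with it. Over all measured genes 13.0% were higher and 11.9% lower without the slope, and 4.54% and 2.80% with it. For these 140 genes the share of lower genes without the slope, 12.1%, was therefore close to that of all genes. Beyond WT and WT + IPTG with the slope, the genes lower at 6 months had a median of 0.18, with 130 of 140 above 0 and 42 higher and 2 lower with an unadjusted p under 0.05. The genes higher at 6 months had a median of -0.22 in that fit, with 9 of 78 above 0 and 33 lower and 0 higher with an unadjusted p under 0.05. Over all measured genes that fit had a median of 0.01, with 7.32% higher and 5.54% lower, and 1 gene of the first list and none of the second was called. Without the slope, the medians beyond WT and WT + IPTG were 0.06 for the genes lower at 6 months, with 83 of 140 above 0 and 16 higher (11.4%, against 9.60% of all measured genes) and 2 lower, and -0.17 for those higher at 6 months, with 14 of 78 above 0 and 21 lower (26.9%, against 7.86%) and 0 higher. In the pair subtracted in these fits, WT + IPTG against WT with the slope, the median difference was 0.14 for the genes lower at 6 months, with 121 of 140 above 0, and -0.16 for those higher, with 8 of 78 above 0.

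A published list of genes changed in several HD mouse models, named in the study's supplement, had 186 members measured here. Camk2n1 was called without the slope and none with it. The median was -0.04 and 0.03, and with the slope 22 were higher (11.8%, against 4.54% of all measured genes) and 7 lower (3.76%, against 2.80%) with an unadjusted p under 0.05. Without the slope 19 were higher (10.2%, against 13.0%) and 13 lower (6.99%, against 11.9%). Ppp1r1a, an inhibitor of protein phosphatase 1, was 231 ± 31.2 CPM in LacQ140_A and 185 ± 23.3 in LacQ140, a difference of 0.32 ± 0.08 (edgeR adjusted p = 0.109) and 0.23 ± 0.06 with the slope (adjusted p = 0.119). Wipf3, an actin regulator, was at 0.39 ± 0.09 with the slope (adjusted p = 0.0616) and 0.12 without it, and Plk5, a polo-like kinase, at 0.47 ± 0.12 (adjusted p = 0.107) and 0.38. Pde10a, a phosphodiesterase of striatal spiny neurons and of the cAMP pathway, was at 0.29 ± 0.10 with the slope (adjusted p = 0.587) and 0.20 without it.

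The groups taken off IPTG later were set against the same LacQ140 libraries. LacQ140_2M gave 29 calls without the slope (0.0841% of those tested) and 45 with it (0.13%), and LacQ140_8M 0 without the slope (976 with an unadjusted p under 0.05) and 3 with it (0.0087%). For Smim3, Tsc22d3 and Trim54, picked after their values were seen, the means of both groups lay between those of LacQ140 and LacQ140_A. Mean Smim3 was 35.7 ± 9.21 CPM in LacQ140_2M and 30.4 ± 7.48 in LacQ140_8M, against 42.4 ± 9.10 in LacQ140_A and 25.4 ± 4.64 in LacQ140 (n = 10 each). Tsc22d3 was 154 ± 36.1 and 146 ± 27.2 CPM, against 176 ± 28.1 and 121 ± 21.3. Trim54 was 1.31 ± 0.545 and 0.887 ± 0.513 CPM, against 1.43 ± 0.366 and 0.567 ± 0.230. Rasd1 rose by 0.59 in LacQ140_2M with the slope (edgeR adjusted p = 0.0349), and Htt fell by 0.40 in LacQ140_8M with the slope (adjusted p = 0.00039).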

How the data were processed

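Total RNA was extracted from flash-frozen cortex, its libraries are labelled mRNA, and the authors deposited expected counts, not normalized, for 54532 genes; 54495 of these were found in GENCODE on GRCm38, and 31.58% of the nonzero 12-month values were not whole numbers. Aligner, counter and library strand are not given in the sources used here. Counts were rounded, genes with at least 1 count over the 60 libraries were kept, and edgeR 4.0.16 (R 4.3.3, TMM, glmQLFit with group as the only term, Benjamini-Hochberg adjustment) was fitted without and with the length slope, a regression over genes averaging 1 log2 CPM or more (prior count 2). The SE is the size of the log2 fold change divided by the square root of F. Library measures were compared by permutation. Over 90 within-group pairs of libraries, chi-square divided by its degrees of freedom was 14.0 at the lowest, and none was counted as a copy. The scripts were tested on simulated data. Mice were taken as separate by their labels. DESeq2 1.42.0 and limma 3.58.1 were alternatives, with those in the closing section. Named genes are Htt, those called without the slope, the 10 of smallest p each way with it, up to 5 per list, and up to 10 called between LacQ140 and WT + IPTG with Cldn14, Smim3 and Abhd1; Ddit4, Klf9, Mid1's neighbours and partners of overlapping genes were named after their values were seen. The members and lists were chosen with earlier results of these data known. Python 3.11.15, numpy 2.4.6, pandas 2.3.3, scipy 1.17.1 and matplotlib 3.10.9 were used. Of the genes called in either fit, 1 is not reported here.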

Additional observations from a re-analysis of the deposited data

Results flagged for a closer look

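In groups of 10 mice, 76 groups of values of the named genes were tested by Dixon's ratio, and 12 held a library apart from the rest. A rate of 1 in 20 would give 3.8, but genes were named by calls on these same libraries. For Gm28539, Gm9726 and Gm43694 the rest of the group was at 0, so that any count stands apart. The 3.8 is therefore not a chance count for these genes. Ada was 8.67 CPM in LacQ140_A F4, against 1.58 to 3.59 in the other 9 libraries, and Gm19439 was 98.0 CPM in the same library, against 25.8 to 56.6. Gm42798 was 1.45 CPM in LacQ140_A M1, against 0.325 to 0.913, and Plet1os was 1.66 CPM in LacQ140_A F1, against 0.0239 to 0.769. Rpl14-ps1 was 3.30 CPM in LacQ140_A M5, against 0 to 1.45, and Gm28539 was 0.144 CPM there, against 0 in the rest. Gm43694 was 0.510 CPM in LacQ140_A M4 and 0 in the rest. Among LacQ140 mice, Tmem37 was 4.36 CPM in F3, against 1.97 to 2.98, and Gm48678 was 2.28 CPM in M1, against 0.593 to 1.36. LacQ140 M3 stood apart for 3 genes, with Gpr153 at 4.86 CPM against 7.42 to 9.54, Gm9726 at 1.59 CPM against 0, and Mrip-ps at 0.983 CPM against 0 to 0.190.

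Arrdc2 differed between the sexes in the fit with the slope, by -1.25 in males beyond females (edgeR adjusted p = 0.0126), from a female difference of 1.25 and a male difference of 0.00. It was higher in all 5 LacQ140_A females than in all 5 LacQ140 females, and the male groups overlapped.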

How the results depend on the processing

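The 12-month cortex gave few calls, and the counts depended on the fit. Between LacQ140_A and LacQ140 without the slope, where 15 genes were called, fitting the 20 libraries alone called 1896 (1117 higher, 779 lower), which included all 15, edgeR's filterByExpr left 9, robust dispersions 4, and leaving out the 4 steepest LacQ140_A libraries 0; DESeq2 called 19, limma 19 and the replicate block 13. With the slope, where 25 were called, the 20 libraries alone gave 12, filterByExpr 5, sex as a covariate 9, the replicate block 4, robust dispersions 6, limma 0 (2400 with an unadjusted p under 0.05), and leaving out the 4 steepest libraries 11; DESeq2 called 19. Beyond WT and WT + IPTG, where 1 was called, the 4 groups alone gave 10, DESeq2 11, filterByExpr 2, robust dispersions 0 (3113 with an unadjusted p under 0.05), limma 8, leaving out the steepest libraries 2 and the slope 33. Against WT, where 6 were called, the 2 groups alone gave 11, DESeq2 11, limma 12 and the slope 58. For males beyond females, where 0 were called, the groups alone gave 2, DESeq2 3, limma 4 and the slope 1. Htt kept its size in the 20 libraries alone, at -0.49, and passed there. The cause of these moves was not tested, except that the fits of fewer groups take the spread from fewer libraries.

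With each library left out in turn, the counts lay between 1 and 19 without the slope, 14 and 33 with it, 1 and 11 beyond WT and WT + IPTG, 4 and 11 against WT (11 without LacQ140_A F4) and 0 and 1 for males beyond females (1 without LacQ140 M1), and Htt between -0.53 and -0.44. For mice of the 2 groups that share a number, the deviations had correlations of -0.30 to 0.45, with a median of 0.04. They were over 0.1 in 4 of 10 pairs, and 3 of 10 LacQ140_A libraries were closest to their own number. Whether such mice share more than a number was not tested. With the replicate block Htt was -0.48 (edgeR adjusted p = 0.184), 1 gene was called beyond WT and WT + IPTG and 5 against WT. Of the values of the genes called in either fit, each under the alternatives of its own fit, 757 kept their side of the threshold, 448 lost it and 0 turned in sign.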

Other observations

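Immediate early genes, which neurons switch on within minutes of activity, had a median over 17 genes of -0.38 in females and 0.16 in males in the fit with the slope, and -0.51 and 0.11 without it. None was called in either sex or between LacQ140_A and LacQ140 over both, and the difference of the sexes over the list was not tested. Arc, which reaches active synapses, was 125 ± 60.6 CPM in LacQ140_A and 174 ± 87.4 in LacQ140, and Fos, a transcription factor of activity, 20.9 ± 5.74 and 27.9 ± 11.1 (edgeR adjusted p = 0.477 and 0.379 without the slope). Circadian clock genes had a median of -0.15 without the slope and 0.08 with it, and Per3 was at 0.13 ± 0.12 and 0.25 ± 0.10 (adjusted p = 0.677 and 0.715). Cholesterol synthesis genes had a median of -0.09 in both fits, with 4 of 21 above 0 with the slope, and Fdps was at -0.21 ± 0.09 without it and -0.16 ± 0.08 with it (adjusted p = 0.298 and 0.862). Of 303 measured zinc finger Zfp genes, 23 were lower (7.59%, against 2.80% of all measured genes) and 6 higher (1.98%, against 4.54%) with an unadjusted p under 0.05 with the slope, at a median of -0.04, and Zfp189 was at 0.41 ± 0.12 (adjusted p = 0.235). Without the slope 25 Zfp genes were lower (8.25%, against 11.9% of all measured genes) and 16 higher (5.28%, against 13.0%), so that the share of lower genes lay below that of all genes in this fit and above it in the other.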
